A study of Mus musculus with 20 samples.

Results

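Complement and coagulation are 2 families of plasma proteins that are secreted mostly by hepatocytes. They are joined by proteins that myeloid, endothelial and stromal cells make where they sit. The 45 genes described here were found by name in both count tables, each of which lists 54532 genes: coagulation factors, fibrinogen chains, anticoagulants and fibrinolytic enzymes on the one side, and complement components, regulators and receptors on the other. By textbook origin 35 were grouped as hepatocyte-made, of which 10 are known from other cells too (F5, F7, F10, Pros1, C1s1, C2, C3, C4b, Cfb and Masp1), and 10 as myeloid- or stroma-made (F3, Plau, Plat, Thbd, C1qa, C1qb, C1qc, Cfp, C3ar1 and C5ar1). Of these, all 45 passed the expression filter in the tissue and in the joint fit, and 39 passed it among the sorted cells.

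The tissue came from WT C57BL/6 mice in a model of colorectal liver metastasis (CRLM), in which 1000000 MC38 cells, a colon carcinoma line of that strain, were injected and reached the liver by the portal route. Normal livers of mice given normal saline (con, day 0) had 2 libraries. Tumor-free liver remote from the tumor (L-con, day 12) had 1, low-content tumor (Lt, day 9) 2, medium-content tumor 2 each at day 9 (Mt3), day 11 (Mt2) and again day 11 (Mt1), and high-content tumor (Ht, day 12) 3. The metastasis samples held tumor together with the liver around it, so every tissue value is a mixture. F4/80+ cells and CD11b+ cells, both taken with microbeads from Mt2 metastases at day 11, had 3 libraries each. The Methods call the first and the last Ht library identical, and they were summed to 1 sample, Ht 1. The mice were 6 to 8 weeks old by the Methods, with no age in the labels. The labels call the tissue mice male and the Methods call the mice female. The Y-linked gene Ddx3y had 348 to 1421 counts in the tissue libraries and 0 in the sorted cells. Xist counts were 5547 to 21805 in the sorted cells and 0 in both Mt2 tissue libraries. By these counts the sorted cells came from other mice than the Mt2 tissue libraries. Sex, table and kind of sample therefore cannot be told apart wherever sorted cells are set against tissue.

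Coagulation begins when tissue factor (F3) binds factor VII, or when the contact system of factor XII, kallikrein and kininogen starts the intrinsic factors. Both routes meet at factor X and thrombin (F2), which cuts fibrinogen to fibrin, and plasmin dissolves it again after plasminogen (Plg) is activated by the tissue-type (Plat) or urokinase-type (Plau) activator. Complement begins with C1q on antibody or dying cells, with mannose-binding lectins on sugars, or by itself on C3. All routes cleave C3, release small peptides that act on the receptors C3ar1 and C5ar1, and end in the pore of C6, C8 and C9 with other terminal components. Tissue macrophages are the main source of C1q.

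Libraries held 16032085 to 18246623 counts in tissue and 17785496 to 20548370 in sorted cells, at which 3 counts, used as a floor, cover counting error only. Within groups, Mt2 2 and Mt1 2 had less hepatocyte RNA than their partners (mean log2(CPM + 1) of 19 hepatocyte genes 9.64 and 9.54 against 11.8 and 11.2, CPM being counts per 1000000 counts of the library after TMM scaling). Among the CD11b+ libraries the third stood apart, with a neutrophil score of 8.01 against 6.61 and 5.73. The same hepatocyte list scored 12.73 and 12.52 in con, 6.73 and 7.24 in Ht, 2.54 to 3.04 in F4/80+ and 1.61 to 2.65 in CD11b+ cells. In bulk tissue, fewer hepatocytes and less RNA per hepatocyte cannot be told apart. The exons of some members are shared with other genes in the GENCODE annotation: 79.5% of the exonic bases of Cfb and 46.9% of those of C2 (with Gm20547, which had 0 counts in every library, and for C2 also with Zbtb12), 54.9% of Masp2, 43.2% of Klkb1 and 34.4% of Serpinc1. How the counter treated reads on shared bases is not given in the sources used here, so levels per length of these members are uncertain, as are C4b and C1s1, which have near-identical copies.

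Many members lie beside their partners in the genome (GRCm38). The fibrinogen genes Fgg, Fga and Fgb span 42.1 kb of chromosome 3 (chr3:83007724-83049863), and the C1q genes span 18.7 kb of chromosome 4 (chr4:136880129-136898803). Further neighbours, with less than 100 kb between them, were F7 with F10 (chr8:13026034-13056676), F11 with Klkb1 (chr8:45241174-45294859), C8b with C8a (chr4:104766317-104876398) and Cfb with C2 (chr17:34856374-34898265). RefSeq promoters (GRCm38.p6) were at hand for 33 members. To show what the fibrinogen genes, whose ratio to other hepatocyte genes is given below, do and do not share, the 250 bases before their start sites follow, with C3 and with C1qc as a macrophage gene. They are written 5′ to 3′ with capitals at the letters of a searched motif on either strand (HNF1 GTTAATNAT, HNF4 CAAAGTCCA or CAAAGGTCA, C/EBP TTGCNNAA, STAT TTCNNNGAA, PU.1 GAGGAAGT, and TATAAA for the box of that name).
Fga (chr3:83025903-83026152, plus strand): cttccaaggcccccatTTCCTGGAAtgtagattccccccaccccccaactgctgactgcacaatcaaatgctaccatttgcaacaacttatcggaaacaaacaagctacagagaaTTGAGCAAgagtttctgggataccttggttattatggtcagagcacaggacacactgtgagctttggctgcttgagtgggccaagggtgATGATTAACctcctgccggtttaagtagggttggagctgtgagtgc
Fgb (chr3:83049864-83050113, minus strand): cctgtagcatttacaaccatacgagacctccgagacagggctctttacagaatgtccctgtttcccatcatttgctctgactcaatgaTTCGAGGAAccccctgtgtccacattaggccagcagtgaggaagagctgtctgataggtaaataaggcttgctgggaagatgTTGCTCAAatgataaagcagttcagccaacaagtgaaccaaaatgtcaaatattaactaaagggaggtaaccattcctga
Fgg (chr3:83007474-83007723, plus strand): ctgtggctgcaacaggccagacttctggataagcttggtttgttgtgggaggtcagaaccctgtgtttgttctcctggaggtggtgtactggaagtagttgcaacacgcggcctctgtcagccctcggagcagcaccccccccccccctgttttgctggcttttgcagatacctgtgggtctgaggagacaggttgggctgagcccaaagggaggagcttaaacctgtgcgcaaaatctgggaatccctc
C3 (chr17:57228137-57228386, minus strand): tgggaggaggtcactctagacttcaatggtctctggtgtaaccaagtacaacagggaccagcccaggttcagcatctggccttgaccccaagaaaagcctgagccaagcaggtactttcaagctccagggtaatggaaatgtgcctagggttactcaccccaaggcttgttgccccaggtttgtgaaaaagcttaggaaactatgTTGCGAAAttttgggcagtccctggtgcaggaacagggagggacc
C1qc (chr4:136892915-136893164, minus strand): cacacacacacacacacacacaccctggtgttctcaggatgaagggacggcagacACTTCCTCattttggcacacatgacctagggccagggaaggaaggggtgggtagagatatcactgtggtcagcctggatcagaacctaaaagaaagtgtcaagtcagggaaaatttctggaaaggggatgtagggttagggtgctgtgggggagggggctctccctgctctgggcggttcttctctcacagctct

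Fga held 1 match each to the HNF1, C/EBP and STAT letters, Fgb 1 each to C/EBP and STAT, Fgg none, C3 a C/EBP match 45 bases before its start and C1qc a PU.1 match. The STAT and C/EBP letters do not overlap in either Fga or Fgb. A member was counted where any of its promoters held the letters. Among 27 hepatocyte-made members with a promoter, 8 held the C/EBP letters (C1s1, C3, C9, F11, F9, Fga, Fgb and Klkb1), against 9.57% of 32817 promoters of the same length, and 6 held the STAT letters (C8a, F9, Fga, Fgb, Masp2 and Pros1), against 7.01%. The HNF1 letters stood in 3 (C4bp, F13b and Fga), against 0.737%, the HNF4 letters in F7 alone, against 0.808%, and TATA in Klkb1 alone, against 12.4%. Of 6 myeloid- or stroma-made members, 1 (C1qc) held PU.1, against 2.44%, and 1 (C3ar1) TATA. These matches describe letters only.

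**Figure D1:**
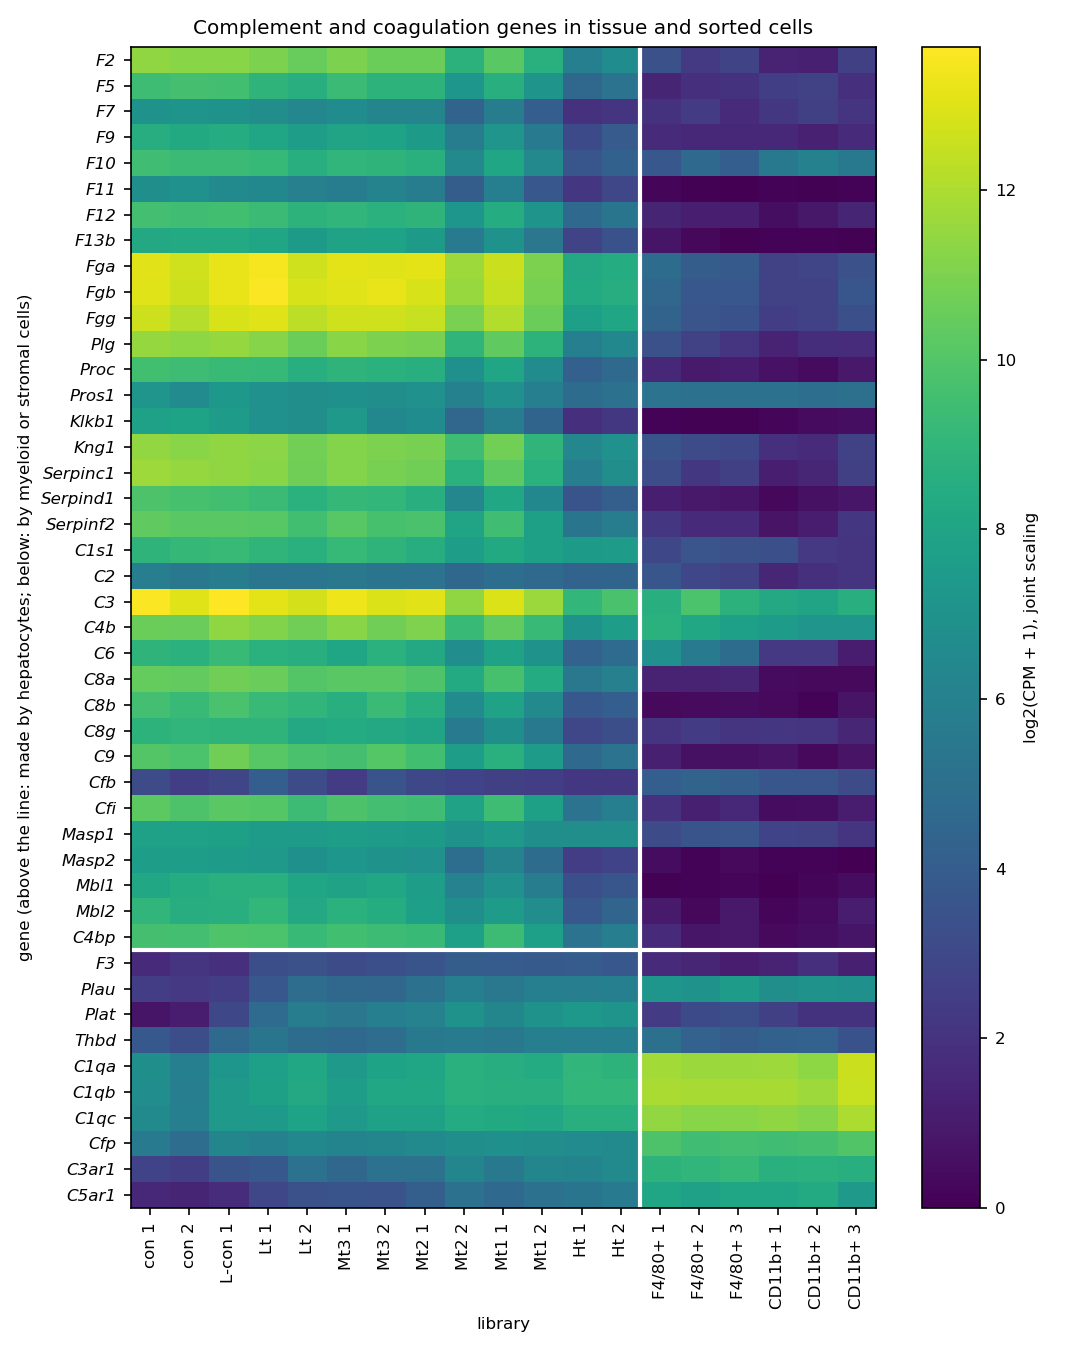
Level of each of the 45 genes (rows) in 13 tissue and 6 sorted-cell samples (columns), as log2(CPM + 1) with joint TMM scaling, with color from 0 (dark) upward. Hepatocyte-made genes, above the white line, are darker in Ht than in con, and all but Cfb are darker in sorted cells than in con, C3 and C4b staying bright, and the 3 C1q genes, below it, are brightest in sorted cells.

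In normal liver the members spanned more than 4 orders of magnitude. Per kilobase of gene length, the highest was Fgg (3000 and 2134 CPM per kb in the con libraries), followed by Fga (2715 and 2137), C3 (2340 and 1548) and Fgb (2071 and 1588). Fgg and Fga overlapped, Fgb lay under both, and C3 overlapped each of the fibrinogen genes. Kng1, the kininogen precursor, followed at 837 and 720 CPM per kb, Plg at 761 and 690, and F2 at 576 and 511. The lowest hepatocyte-made level per length was that of Cfb (2.69 and 1.61), the member whose exons are mostly shared. The highest myeloid- or stroma-made level was C1qa (102 and 54.5) and the lowest Plat (0.113 and 0.172). Together the 45 members took 4.22% and 3.5% of all counts in con, and the fibrinogen chains alone 1.53% and 1.2%.

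From con to Lt the question was which members change first, while most of the sample is still liver. None of the 35 hepatocyte-made members was called in either direction, whereas 9 of the 10 myeloid- or stroma-made members rose. A call needed an adjusted p of at most 0.05 in the edgeR quasi-likelihood test and a log2 fold change of at least 1 in size, which 12.4% of 17187 genes met upward and 0.256% downward. The largest rise was that of Plat, the tissue-type plasminogen activator. Its level was 0.708 and 1.08 CPM in con and 25.6 and 53.8 CPM in Lt, with no overlap, a log2 fold change of 5.46 ± 0.56 (SE, n = 2 against 2, adjusted p = 0.00133). Plau, the urokinase-type activator, was at 4.51 and 3.72 CPM in con and 11.6 and 28.1 CPM in Lt (log2 fold change 2.27 ± 0.42). The initiator F3 rose from 2.12 and 3.22 to 8.31 and 9.19 CPM (1.71 ± 0.28), and thrombomodulin (Thbd), which turns thrombin toward activating protein C, from 12.2 and 8.43 to 36.8 and 27.2 CPM (1.63 ± 0.23). All 4 were therefore higher in both Lt libraries than in either con library.

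The C1q chains moved together. C1qb was at 99.5 and 55.1 CPM in con and 206 and 295 CPM in Lt, and the log2 fold changes were 1.61 ± 0.36 for C1qa, 1.70 ± 0.36 for C1qb and 1.47 ± 0.32 for C1qc. The anaphylatoxin receptors C3ar1 (2.15 ± 0.54) and C5ar1 (2.16 ± 0.39) rose alike. Properdin (Cfp), which stabilizes the alternative C3 convertase, missed the fold threshold at 0.91 ± 0.26 (adjusted p = 0.0483). The median log2 fold change was 1.70 over these 10, -0.33 over the 35 hepatocyte-made members and 0.10 over all genes tested. Among the hepatocyte-made, values ran from -1.05 ± 0.67 for Klkb1 (adjusted p = 0.326) to 0.89 ± 0.47 for Cfb (adjusted p = 0.247), and 0 of 35 had an unadjusted p under 0.05. DESeq2 called 9 members higher and 0 lower. In a fit of con and Lt alone, and with no expression filter, Klkb1 was called lower. With con 2 or Lt 2 left out, which leaves 1 sample in a group, fewer members were called, as were fewer genes in all. The C1q chains and both receptors were not called in either fit, nor Plau in the former. C1qb was then at 1.32 and 1.42 and C3ar1 at 2.01 and 1.25 on the log2 scale. Without con 1, C3ar1 was not called (2.28) and Cfp was. Macrophage scores (4.77 and 4.31 in con, 5.62 and 6.09 in Lt), fibroblast scores (4.42 and 3.75, 6.23 and 6.68) and tumor scores (0 in both con libraries, 4.61 and 5.81) moved with these genes. Their part in the rises was not tested.

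From con to Ht the liver gave way to tumor, and the members split by origin. Of the 35 hepatocyte-made members 34 fell, and all 10 myeloid- or stroma-made members rose, where 24.1% of all genes tested were called lower and 25.8% higher. The median log2 fold change was -4.73 over the hepatocyte-made and 2.62 over the others, against 0.09 over all genes. Total-count scaling moved that background median to 1.28 and the calls over all genes to 2250 lower and 8819 higher. Under it Masp1 changed sign (0.08) and C1s1, C2 and Pros1 were no longer called. Under it 30 members were called lower and 10 higher.

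All 5 intrinsic and contact factors fell. Prekallikrein (Klkb1) was at 220 and 238 CPM in con and at 2.53 and 3.55 CPM in Ht, a fall of 6.24 on the log2 scale (SE 0.83, adjusted p = 0.000314). Kng1 went from 2721 and 2339 to 76.2 and 114 CPM (log2 fold change -4.73 ± 0.72). Factors IX, XI and XII changed by -4.98, -4.57 and -4.58. In the extrinsic and common route, prothrombin (F2) went from 2644 and 2346 to 56.1 and 94.7 CPM (-5.05 ± 0.76). F7, F10 and its cofactor F5 changed by -5.44, -5.52 and -4.67. F3 alone of this route was higher, at 14.1 and 11.3 CPM against 2.12 and 3.22 (2.25 ± 0.28). So the initiator was higher in every Ht sample than in con while each factor downstream of it was lower.

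Fibrinogen fell nearly in step over its chains. Fga was at 8172 and 6434 CPM in con and 291 and 341 CPM in Ht, Fgb at 7891 and 6052 against 309 and 349, and Fgg at 6279 and 4466 against 202 and 251. Their log2 fold changes were -4.53 ± 0.77, -4.41 ± 0.74 and -4.57 ± 0.76, and that of F13b, the carrier subunit of the fibrin crosslinker, was -5.34 ± 0.75. In fibrinolysis the zymogen and its activators parted. Plg went from 2824 and 2560 to 55.8 and 78.9 CPM (-5.32 ± 0.78) and the plasmin inhibitor Serpinf2 changed by -4.73. Plat rose from 0.708 and 1.08 to 150 and 126 CPM (7.26 ± 0.58, adjusted p = 9.02e-05), the largest change of any member, and Plau from 4.51 and 3.72 to 53.4 and 56 CPM (3.73 ± 0.43). Among natural anticoagulants, antithrombin (Serpinc1, -5.27), heparin cofactor II (Serpind1, -6.00) and protein C (Proc, -5.14) fell, and Thbd, the endothelial partner of protein C, rose (2.40 ± 0.24). Protein S (Pros1), made by endothelial and myeloid cells too, fell less, from 136 and 92.5 to 26.7 and 32.9 CPM (-1.94 ± 0.39).

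In complement, the terminal components fell like the coagulation factors: C6 by 4.32, C8a by 4.71, C8b by 5.62, C8g by 6.01 on the log2 scale, and C9 with a log2 fold change of -5.04. The lectin recognition proteins Mbl1 and Mbl2 changed by -4.97 and -4.77, and the protease Masp2 by -5.26. Masp1 went only from 220 and 218 to 101 and 103 CPM (-1.10 ± 0.24), a call lost with no filter and with at least 10 counts in every library. The fluid-phase inhibitors Cfi and C4bp changed by -4.49 and -4.07. C3, the hub of all routes, went from 12030 and 7963 to 503 and 825 CPM (-3.91 ± 0.77), and C4b from 1521 and 1443 to 124 and 183 CPM (-3.27 ± 0.65). The classical proteases C1s1 and C2 fell less than C3 and C4b, C1s1 from 461 and 534 to 167 and 176 CPM (-1.54 ± 0.32) and C2 from 55.6 and 42.5 to 18.8 and 19.4 CPM (-1.36 ± 0.22). Factor B (Cfb), the protease of the alternative convertase, was at 7.61 and 4.55 CPM in con and 3.41 and 3.45 CPM in Ht (-0.82 ± 0.47, adjusted p = 0.154).

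C1q and both anaphylatoxin receptors went the other way. C1qa rose from 106 and 56.7 to 490 and 445 CPM, C1qb from 99.5 and 55.1 to 513 and 498 CPM, and C1qc from 85.8 and 56.8 to 384 and 370 CPM, which are log2 fold changes of 2.52 ± 0.38, 2.71 ± 0.37 and 2.40 ± 0.32. C3ar1 rose from 5.49 and 4.55 to 67.1 and 85.5 CPM (3.93 ± 0.57) and C5ar1 from 1.86 and 1.57 to 37.5 and 45.2 CPM (4.59 ± 0.40). Cfp rose least (48.5 and 27.6 to 91.5 and 86.1 CPM, 1.22 ± 0.26), a call that was lost without con 2. Macrophage scores were 6.47 and 6.64, fibroblast scores 7.56 and 7.47 and tumor scores 7.16 and 7.04 in Ht. Their part in these rises was not tested.

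Medium metastases, taken as the mean over the Mt groups, were then set against Ht, with which the previous comparison shares its Ht samples. Here 31 of 35 hepatocyte-made members fell and 1 of 10 others rose, where 13.4% of genes tested were called lower and 1.5% higher. The exceptions among the hepatocyte-made were C1s1 (-0.93 ± 0.27) and C2 (-0.68 ± 0.19), which passed the adjusted p but not the fold, and Masp1 (-0.59 ± 0.20) and Cfb (-0.76 ± 0.39), which passed neither. C5ar1 rose (1.13 ± 0.24, adjusted p = 0.0152), whereas Plat (0.87 ± 0.32), C1qa (0.74 ± 0.28) and F3 (0.21 ± 0.20) did not pass. Hepatocyte-made members already ranged widely among the medium samples. Fgb was at 7868 and 9198 CPM in Mt3, 7042 and 2856 in Mt2, and 5433 and 1782 in Mt1, the low values being those of Mt2 2 and Mt1 2. Without these, an alternative chosen after seeing the data, 32 members fell and 3 rose, Plat and C3ar1 being added, as they also were without Mt2 2 alone. With the Mt samples as 1 group C5ar1 was no longer called. Scaled by total counts, 8 members were called higher, as were 2585 of all 17187 genes tested. The background median was then 0.55 in place of 0.003. Without either Ht sample the remaining one stood alone, and edgeR called no gene at all in either direction. The lost calls of the members are therefore not particular to them. All 32 members called with both Ht samples kept their direction.

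To see whether members changed beyond the loss of hepatocyte RNA as a whole, each library was also scaled to the mean log count of 19 other hepatocyte genes, such as Alb and Ttr, among which no member stands. On this scale the 35 hepatocyte-made members no longer fell: from con to Ht, 0 were called lower and 9 higher, with a median of 0.93. Of all genes, 91.6% were called higher here and 0.401% lower, with a median of 5.78. The 9 were C3 (1.74 ± 0.54), C4b (2.37 ± 0.60), C4bp (1.57 ± 0.60), Fgb (1.29 ± 0.55), Pros1 (3.75 ± 0.72), C1s1 (4.14 ± 0.75), C2 (4.34 ± 0.82), Masp1 (4.59 ± 0.81) and Cfb (4.89 ± 0.97). Of these, 7 are among the 10 known from other cells, and C4bp and Fgb are not. The calls of C4bp and Fgb were lost when Alb alone or the summed list set the scale and without either con library, that of Fgb also without Ht 1 and that of C4bp without Ht 2. C3 was lost without con 2. Fga (1.16 ± 0.54, adjusted p = 0.0523) and Fgg (1.12 ± 0.55, adjusted p = 0.0628) stood close to Fgb without passing. F10 (0.12 ± 0.59), C8b (0.06 ± 0.62), Plg (0.33 ± 0.56) and Serpinc1 (0.35 ± 0.57) stayed near the list, and Klkb1 (-0.59 ± 0.63), Serpind1 (-0.35 ± 0.59) and C8g (-0.35 ± 0.60) lay under it.

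**Figure D2:**
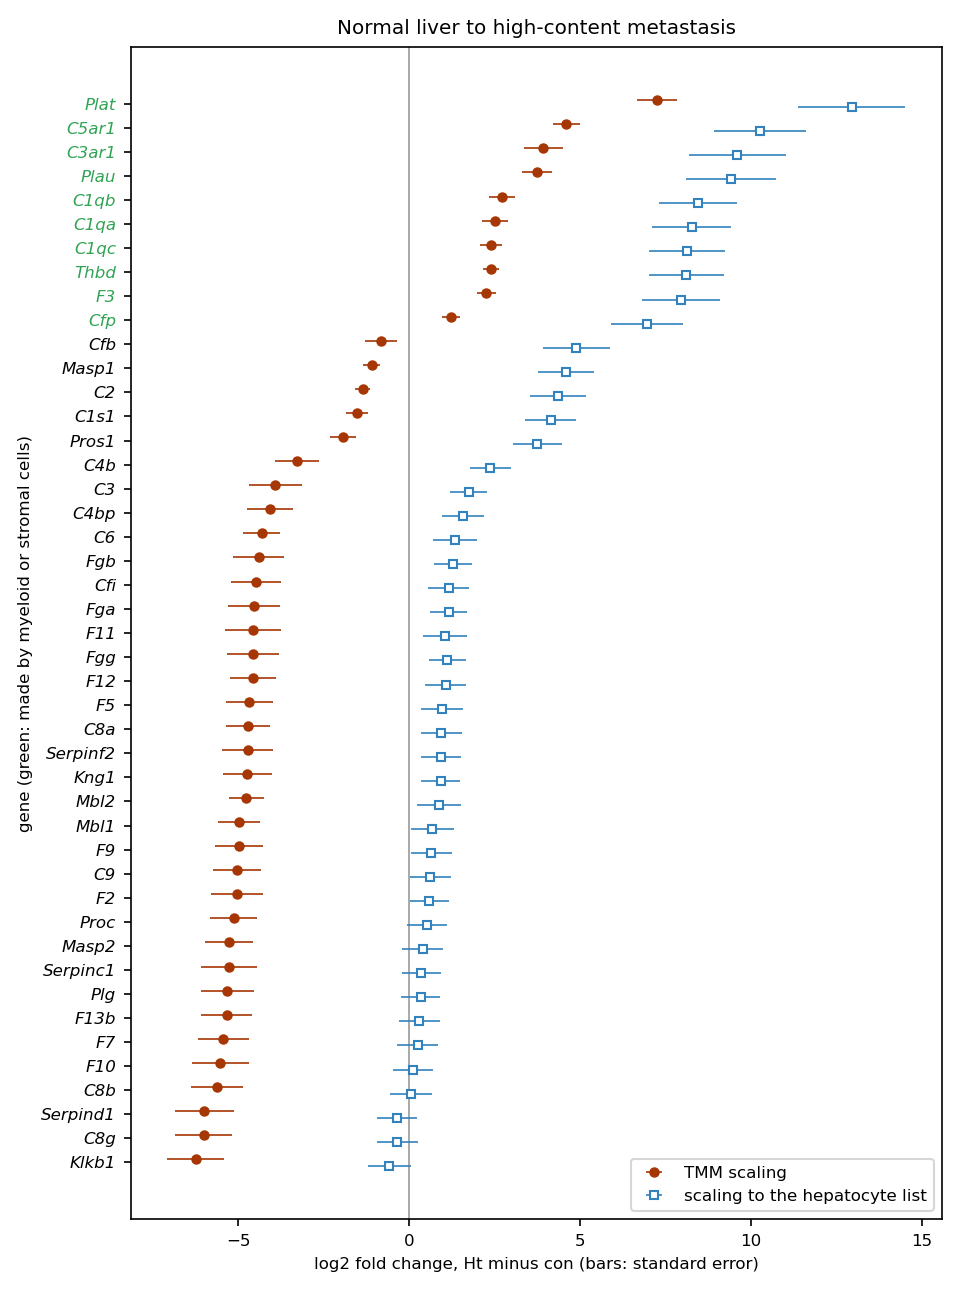
Log2 fold change of each member from con to Ht (x axis), with TMM scaling (filled circles) and scaled to 19 hepatocyte genes (open squares); bars are standard errors. Hepatocyte-made genes (black names) lie between -6.24 and -0.82 on the first scale and between -0.59 and 4.89 on the second, and the myeloid- or stroma-made genes (green names) are at the top on both.

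Relative to the hepatocyte list, from 24 (Lt 1) to 32 of the 35 hepatocyte-made members stood above the con mean in each metastasis library, with medians from 0.12 (Lt 1) to 0.96 (Ht 2) on the log2 scale. Without metastasis, 11 and 22 of the 35 stood above it in the con libraries and 29 in L-con (median 0.22), so the count in Lt 1 was close to that in con 2 and under that in L-con. The fibrinogen genes were above both con libraries in L-con and in every metastasis library. So were other hepatocyte-made members, among them C4b (1.01 in L-con), C4bp, C8a, Kng1 and Cfi. Relative to the con mean, the log2 ratio of Fgb was 0.08 and -0.08 in the con libraries. It was 0.60 in L-con, 1.09 and 0.94 in the Lt samples, 1.44 and 1.11 in the Ht samples, and from 0.76 (Mt3 1) to 1.72 (Mt2 2) over the 6 medium ones. Fga ran from 0.74 to 1.77 over the metastasis libraries and Fgg from 0.79 to 1.52. In Ht, Fga (1.29 and 1.01) and Fgg (1.22 and 1.02) were close to F12 (0.98 and 1.14), Kng1 (0.88 and 0.96) and Serpinf2 (0.96 and 0.91). In the scaled test from con to Lt these differences were not called (Fgb 1.02 ± 0.55, Fga 0.82 ± 0.53 and Fgg 0.83 ± 0.54), and Plat was the only member called (6.14 ± 1.22, adjusted p = 0.033; not without con 1, con 2 or Lt 2), where 2.07% of genes were called higher and 0% lower, with a median of 0.71 over all genes. C3 was at 0.09 and 0.41 in Lt and at 1.65 and 1.85 in Ht, and C4b at 0.77 and 1.04 against 2.35 and 2.40. F2 kept within 0.71 of the con mean throughout. Fibrinogen took 2.41% and 1.76% of all counts in Lt, against 1.53% and 1.2% in con.

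**Figure D3:**
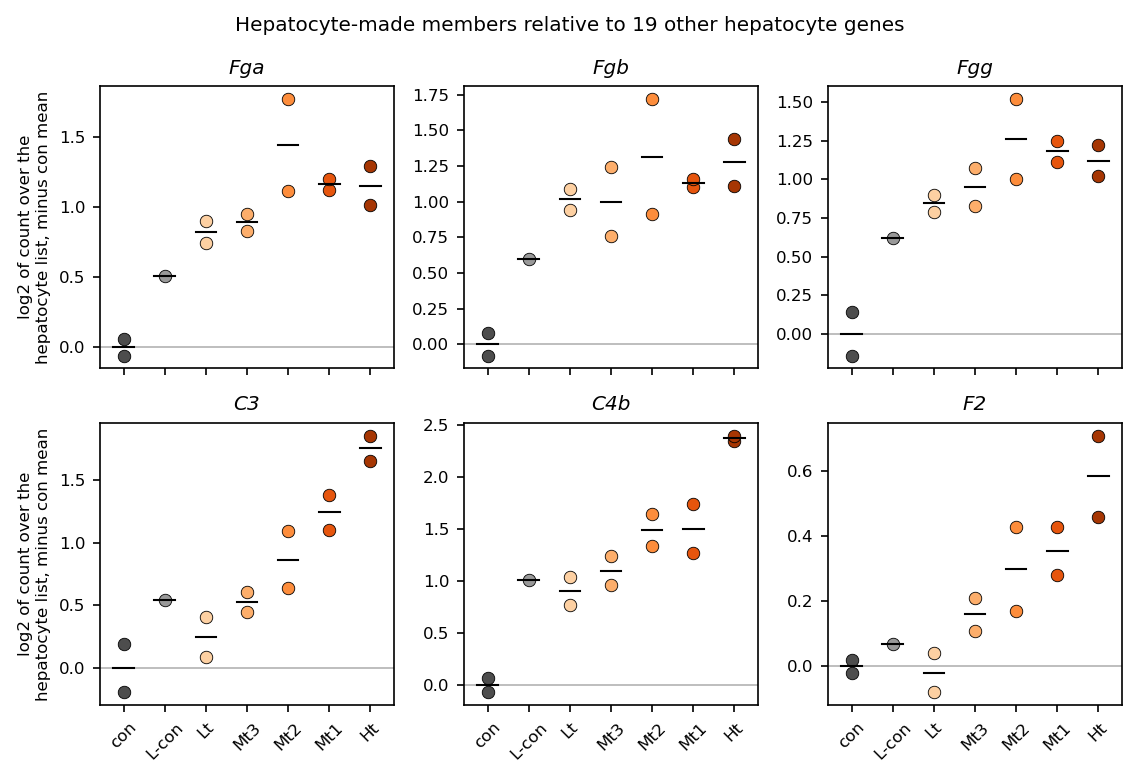
Log2 ratio of 6 hepatocyte-made members to 19 other hepatocyte genes in each tissue library (points; lines are group means), with the con mean set to 0; y axes differ between panels. The fibrinogen genes and C4b lie above both con libraries in L-con and in every metastasis library. C3 and C4b are highest in Ht, and F2 stays between -0.08 and 0.71.

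Genes of 1 complex kept their ratios to different degrees. Per kilobase, Fga stood at 1.09 to 1.53 times Fgb and Fgg at 1.19 to 1.49 times Fgb over the 13 tissue samples, and the ranges in sorted cells were 1.03 to 1.65 and 1.40 to 1.77. C1qa was 0.861 to 1.12 times C1qb in tissue and 0.852 to 1.07 times in sorted cells. C1qc stood at 0.408 to 0.581 times C1qb in tissue and 0.36 to 0.405 in sorted cells. The C8 genes, whose products form 1 trimer, held less tightly: C8b to C8a was 0.781 and 0.649 in con and 0.406 and 0.368 in Ht, and C8g to C8a was 0.788 and 0.942 in con and 0.364 and 0.343 in Ht. In the 3 sorted libraries with at least 10 counts of both, C8g was 4.6 to 6.9 times C8a. C8g lies across from Fbxw5 on the other strand (up to 1124 counts), and the annotation gives 0 shared exonic bases.

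In both sorted populations, 7 of the 10 myeloid- or stroma-made members were higher than in the Mt2 tissue, which came from other mice. Most hepatocyte-made members were lower. In F4/80+ cells 37 members were lower and 8 higher, where 25.2% and 17.2% of 18407 genes were. In CD11b+ cells 37 were lower and 7 higher, where 26.3% and 17.6% were. CPM in this and the next paragraphs are from the joint scaling of tissue and sorted cells. C1qb was at 284 and 417 CPM in Mt2 tissue, at 3911, 3764 and 3770 CPM in F4/80+ and at 3793, 3247 and 6031 CPM in CD11b+ cells, log2 fold changes of 3.44 ± 0.39 and 3.63 ± 0.40. The C1q genes together took 1.04% to 1.13% of all counts in F4/80+ and 0.946% to 1.54% in CD11b+ cells, against 0.0708% and 0.155% in Mt2 tissue. Cfp (3.002 ± 0.28 and 3.07 ± 0.28), C3ar1 (3.23 ± 0.43 and 2.87 ± 0.43), C5ar1 (3.31 ± 0.34 and 3.33 ± 0.34) and Plau (1.75 ± 0.32 and 1.33 ± 0.32) were higher too. The highest C1q values, those of CD11b+ 3, came from the library with the most neutrophil RNA.

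The other 3 of the 10 were lower in the sorted cells than in the tissue. Plat was at 66.4 and 126 CPM in Mt2 tissue, 4.14, 7.47 and 8.63 CPM in F4/80+ and 4.98, 2.96 and 3.02 CPM in CD11b+ cells (-3.83 ± 0.40 and -4.71 ± 0.41). F3 stood at 10.7 and 15.5 CPM in the tissue and between 1.04 and 2.75 CPM in the cells (-2.97 ± 0.34 and -2.82 ± 0.34). Thbd was at 46.1 and 48.6 CPM against 9.86 to 32.6 CPM (-1.09 ± 0.31 and -1.60 ± 0.31), the former lost without F4/80+ 2 or F4/80+ 3. Fibroblast scores were 6.68 and 7.49 in Mt2 tissue and 2.72 to 3.83 in the sorted cells, tumor scores 6.00 and 6.91 against 2.42 to 3.71, and endothelial scores 4.88 and 4.37 against 2.09 to 3.64. The part of these cells in the levels of Plat, F3 and Thbd was not tested.

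**Figure D4:**
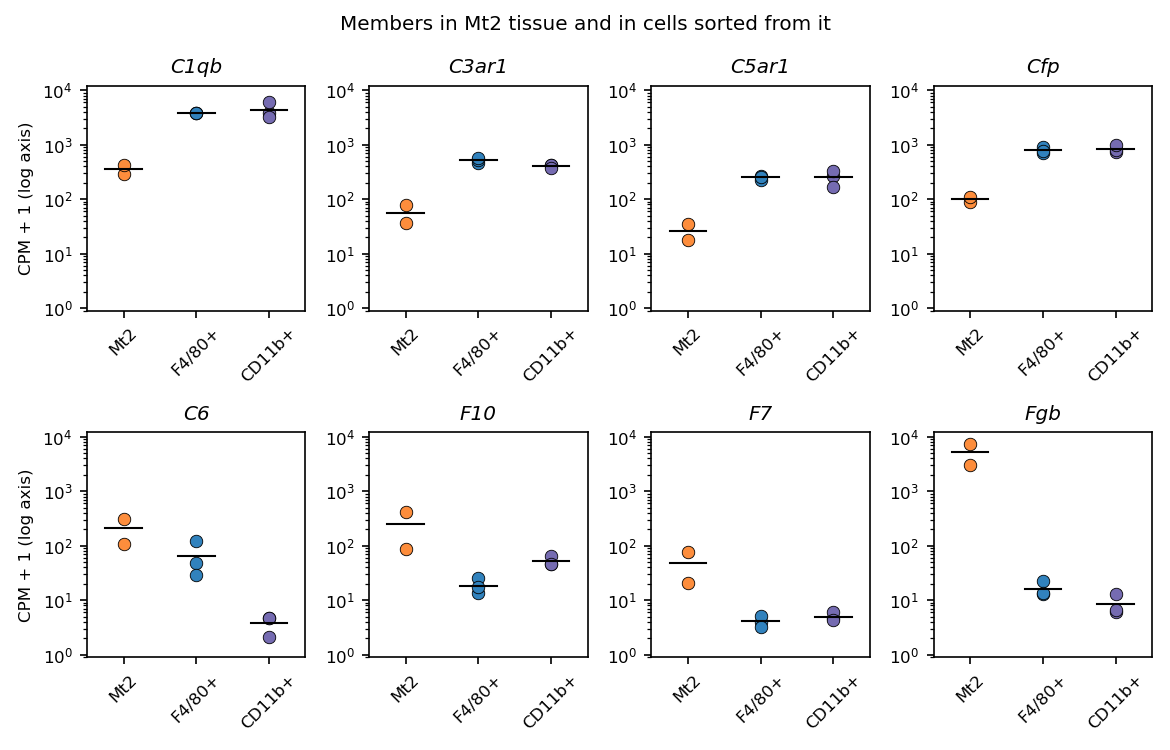
Level of 8 members as CPM + 1 on a log axis (points, with lines at group means). The groups are 2 Mt2 tissue libraries and 3 libraries each of F4/80+ and CD11b+ cells, sorted from Mt2 metastases of other mice. C1qb, C3ar1, C5ar1 and Cfp are higher in all sorted libraries than in the tissue, C6 is higher in F4/80+ than in CD11b+ cells, F10 the reverse, and Fgb is under 30 CPM in all sorted cells.

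Of the 35 hepatocyte-made members 34 were lower in F4/80+ and 34 in CD11b+ cells, with medians of -7.65 and -8.55, but some kept clear counts. With at least 10 counts required in every library, 30 members were tested and 22 were lower in each population. Without Mt2 1 the calls of C4b, C6 and Pros1 in F4/80+ and of F10 in CD11b+ cells were lost, and that of C6 also without F4/80+ 2 or F4/80+ 3 and in a fit of these groups alone. Pros1 was at 34.1 to 36.7 CPM in F4/80+ and 29.3 to 33.6 CPM in CD11b+ cells, against 118 and 64.2 in the tissue. C3 was at 399, 900 and 440 CPM in F4/80+ and 307, 255 and 393 CPM in CD11b+ cells, and C4b at 425, 287 and 214 against 182, 141 and 138 CPM. Cfb was higher in F4/80+ cells than in tissue, at 16.1, 19.8 and 16.6 CPM against 6.90 and 5.67 (1.48 ± 0.38, adjusted p = 0.00456), and not called in CD11b+ cells (11.9, 11.1 and 7.83 CPM, 0.71 ± 0.37, adjusted p = 0.117). At the other end, Klkb1 and Mbl1 had at most 3 counts in F4/80+ cells and were at least 406-fold and at least 902-fold lower than the mean of the Mt2 tissue against the floor of 3 counts per library, or at least 146-fold and at least 441-fold lower than Mt2 2 alone. F11, F13b and Masp2 had at most 2 counts in CD11b+ cells and were at least 233-fold, at least 764-fold and at least 513-fold lower than that mean. Against Mt2 2 alone, bounds worked out after seeing the data, these were at least 106-fold, at least 331-fold and at least 203-fold.

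Scaled to the hepatocyte RNA still in the sorted libraries, these members separated. In F4/80+ cells 13 and in CD11b+ cells 14 of the 35 were called higher than in tissue and 0 lower, while 91.7% and 92.2% of all genes were called higher and 0.429% and 0.244% lower. All 10 members known from other cells were among them in both populations, with medians of 5.17 and 6.34, under the medians over all genes of 7.96 and 9.41. Among them were Cfb (9.64 ± 1.13 in F4/80+, 10.40 ± 1.17 in CD11b+), Pros1 (6.97 ± 0.90 and 8.26 ± 0.95), C2 (6.21 ± 0.95 and 6.03 ± 0.94) and C4b (6.44 ± 0.89 and 6.99 ± 0.91). Of the 25 members not listed above as known from other cells, C6 (6.75 ± 0.99 and 4.08 ± 0.86), C8g (3.48 ± 0.83 and 4.70 ± 0.89) and F9 (2.80 ± 0.79 and 3.999 ± 0.84) were called in both populations. Klkb1 (2.39 ± 0.89) was called in CD11b+ cells on 3, 8 and 7 counts. Klkb1 in CD11b+ cells was lost when Alb alone or the summed list set the scale, as was F5 in F4/80+ cells, and F5 was lost too without F4/80+ 2, F4/80+ 3 or Mt2 1 and Klkb1 without CD11b+ 2, while Mbl1 and C8b in F4/80+ and C8a in CD11b+ cells were then called lower in part of these fits. The fibrinogen chains stayed with the list (Fga 0.15 ± 0.61 and 0.10 ± 0.61, Fgb 0.03 ± 0.61 and 0.26 ± 0.61). A median of 0.55 and 1.11 was found over the 25.

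**Figure D5:**
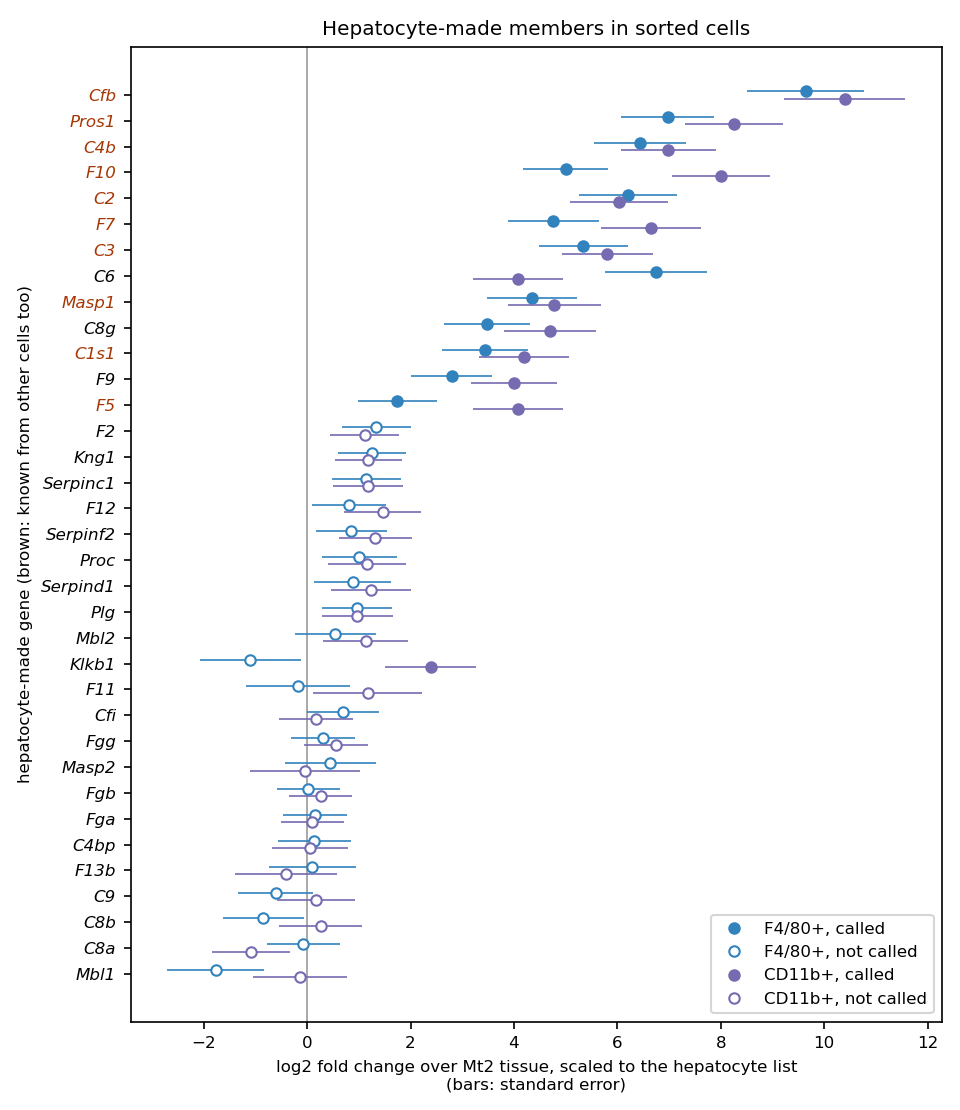
Log2 fold change of the 35 hepatocyte-made members in F4/80+ (blue) and CD11b+ (purple) cells over Mt2 tissue (x axis), scaled to 19 hepatocyte genes; bars are standard errors, filled points were called. The 10 genes known from other cells (brown names) are all called in both populations, together with C6, C8g and F9, and the fibrinogen genes lie close to 0. Of all genes, 91.7% in F4/80+ and 92.2% in CD11b+ cells were called higher on this scale.

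Between F4/80+ and CD11b+ cells, no member reached the threshold. Of 39 members tested, 0 were called by edgeR, where 0.00701% of 14263 genes were called higher in F4/80+ and 0.0701% lower. An unadjusted p under 0.05 was found for 17 members, a number not set against all genes. DESeq2 called 6 higher (Fga, Plg, C2, C6, C8a and Masp1) and 1 lower (F10), where it called 133 higher and 167 lower of all 14263 genes. With a replicate block, edgeR called C6 higher and F10 lower, where 28 genes were called higher and 50 lower. C6, which starts the membrane pore after C5b, differed most. It was at 120, 47.1 and 27.7 CPM in F4/80+ and 3.75, 3.77 and 1.10 CPM in CD11b+ cells, with no overlap, a log2 fold change of 4.43 ± 0.67 (adjusted p = 0.0598). In the same order of libraries Clec4f, a defining Kupffer cell gene named here after its values were seen, was at 1044, 384 and 236 CPM and at 26.6, 36.1 and 9.34 CPM. The C6 level was thus 0.104 to 0.141 of the Clec4f level in all 6 sorted libraries, and 0.574 to 2.61 of it in tissue. Kupffer cell scores were 6.27 to 8.05 in F4/80+ and 3.33 to 4.18 in CD11b+ cells. The part of these cells in the C6 level was not tested.

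F10, the enzyme that makes thrombin, went the other way, at 12.3, 24.2 and 16.1 CPM in F4/80+ and 44.6, 62.7 and 45.8 CPM in CD11b+ cells (-1.59 ± 0.27, adjusted p = 0.0701), also without overlap. Its neighbour F7 did not separate (2.17 to 4.13 against 3.25 to 4.99 CPM, -0.41 ± 0.32). Monocyte scores were 7.58 to 8.04 in F4/80+ and 8.21 to 8.85 in CD11b+ cells, and neutrophil scores 1.85 to 5.23 and 5.73 to 8.01. Without CD11b+ 3, edgeR called C6 and Kng1 higher and F10 lower, where 40 of 14670 genes were called higher and 96 lower. With no filter it called Fga, C2, C6 and C8a higher and F10 lower, where 90 of 25772 genes were called higher and 152 lower. C8a was at 1.47 to 1.78 CPM in F4/80+ and 0.290 to 0.332 CPM in CD11b+ cells (2.31 ± 0.36, adjusted p = 0.0624). The C1q chains, Cfp and the receptors were closer (log2 fold changes between -0.36 and 0.31, SE 0.16 to 0.33). The hepatocyte-made members tested had a median of 0.96, against -0.004 over all genes, and the hepatocyte list itself was higher in the F4/80+ libraries, at 2.54 to 3.04, than in CD11b+ 1 and CD11b+ 2 (1.72 and 1.61), with CD11b+ 3 at 2.65.

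Other genes of both pathways were counted in lists, beside the shares over all genes of 12.4% higher and 0.256% lower from con to Lt, 25.8% and 24.1% from con to Ht, and 1.5% and 13.4% from Mt to Ht. Of 25 other coagulation and fibrinolysis genes tested, 7 rose and 0 fell from con to Lt, 10 rose and 10 fell from con to Ht, and 1 rose and 7 fell from Mt to Ht. F13a1, the catalytic subunit of the fibrin crosslinker, rose in each (5.67 ± 0.43, 8.27 ± 0.43 and 2.13 ± 0.20), opposite to its hepatocyte-made carrier F13b, which fell to Ht. F2rl1, a protease-activated receptor, rose by 3.97 and 5.52 to Lt and Ht. In the con libraries F13a1 had at most 4 counts (mean 0.301 CPM) and F2rl1 at most 5, close to the floor of 3, so the sizes of their changes from con are uncertain. Hrg (-5.21 ± 0.74) and Proz (-5.01 ± 0.77) were among those that fell to Ht. Of 29 other complement genes, 4 rose and 0 fell from con to Lt, 4 rose and 18 fell from con to Ht, and 0 rose and 17 fell from Mt to Ht. The 4 that rose to Lt are 13.8% of the list, close to the share over all genes. Itgam, a chain of complement receptor 3 that is also CD11b, rose to Lt (4.67 ± 0.78) and Ht (6.46 ± 0.77) from at most 8 counts in con, and Cpn2, a carboxypeptidase N subunit, fell (-5.55 ± 0.72 to Ht). Over Mt2 tissue, where 17.2% of all genes were higher and 25.2% lower in F4/80+ and 17.6% and 26.3% in CD11b+ cells, 2 of 26 coagulation genes were higher and 18 lower in F4/80+, and 2 higher and 17 lower in CD11b+ cells. Of 30 complement genes the counts were 7 and 17 in F4/80+ and 6 and 20 in CD11b+ cells. Between the sorted populations edgeR called 0 of 18 and 0 of 24.

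The tumor-free liver L-con, with 1 library and no test, kept the hepatocyte-made members near con. Its score over these 35 was 9.44 against 9.41 and 9.25. Plat was the only member at least 2 times the higher con library, at 6.51 CPM (79 counts) against 0.708 and 1.08 CPM. Next were Thbd (23.6 CPM against 12.2 and 8.43), C3ar1 (10.4 against 5.49 and 4.55) and C1qc (152 against 85.8 and 56.8). Among hepatocyte-made members C4b (2641 CPM against 1521 and 1443) and C9 (1625 against 1003 and 866) were highest over con. Tumor genes scored 2.73 in this library and 0 in con, and their part in these levels was not tested.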

How the data were processed

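Bulk RNA-seq of 14 tissue and 6 sorted-cell libraries was used. The authors deposited raw gene counts for both sets. Per the submitters' processing notes, HISAT2 2.0.5, featureCounts 1.5.0-p3, CASAVA and GRCm38 (mm10) were used, and counts carry no normalization. The kit is not stated to keep strand. Depth limits low members in sorted cells. The members and gene lists were chosen with earlier results of these data known, and all 45 members are named.

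Counts were fitted with edgeR 4.0.16 in R 4.3.3 (TMM scaling, filterByExpr, quasi-likelihood F test, Benjamini-Hochberg adjustment over all genes tested) in a tissue fit (13 samples, 7 groups), a sorted-cell fit (6 samples) and a joint fit (19 samples, 9 groups). SE is the size of the log2 fold change divided by the square root of F. Hepatocyte scaling used the mean log of counts plus 0.5 over 19 genes. Scores are means of log2(CPM + 1) over marker lists. Steps were tested on simulated data. DESeq2 1.42.0, total-count scaling, other filters, left-out libraries and a replicate block were alternatives. Figures used matplotlib 3.10.9. The Ht libraries called identical in the Methods differed by a chi-square per gene of 30.3, against 29.1 and 13.2 for the other pairs, and were still summed. Per the Methods, tissue groups other than L-con had 2 livers each. For the sorted cells the sources used here do not say whether libraries came from separate mice, so their p-values measure the spread between these samples, which may be technical.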

Additional observations from a re-analysis of the deposited data

Results flagged for a closer look

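In the single L-con library Plat stood at 6.05 times the higher con library (6.51 CPM against 0.708 and 1.08 CPM). It was singled out because L-con enters none of the tests. With 1 library the difference has no replicate check.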

How the results depend on the processing

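Over members called in a comparison and tested under the alternative, 2525 of 2640 values kept direction and side of the threshold, 114 lost the call and 1 reversed: Masp1 from con to Ht with total-count scaling (0.083, adjusted p = 0.716). These totals leave out calls gained by other members and 32 values of called members that were not tested with at least 10 counts in every library. From con to Lt, 1 member was lower with no filter and 1 in a fit of these groups alone, and 3 to 9 were higher when single libraries were left out. From Mt to Ht, 0 were higher with Mt as 1 group, 8 with total-count scaling and 3 without Mt2 2 and Mt1 2 (chosen after seeing the data), and leaving out libraries gave 0 to 3 higher and 0 to 32 lower. Between F4/80+ and CD11b+, 6 were higher and 1 lower with DESeq2, 4 and 1 with no filter, and 1 (C6) and 1 (F10) with a replicate block, and leaving out libraries gave 0 to 2 and 0 to 1. Replicate numbers did not pair the samples (correlations from -0.386 to 0.012); the replicate block left the tissue counts at 9, 10 and 1 higher and 0, 34 and 31 lower, as did exchanged numbers for con to Lt and Mt to Ht, added after seeing the data. Requiring 10 counts in every library left 22 lower members in F4/80+ and 22 in CD11b+ cells against Mt2. On the hepatocyte scale, con to Lt gave 0 to 1 higher when libraries were left out, and Alb alone or the summed list gave 1 and 2 lower in F4/80+ and 1 and 1 in CD11b+ cells. The causes were not tested. Where a left-out library leaves 1 sample in a group, that sample is assumed to vary like the other groups.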
